A study of Mus musculus with 9 samples.

Results

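The transcripts of 10 genes of the bone morphogenetic protein (BMP) pathway were followed, namely the ligands Bmp2, Bmp4 and Bmp6, the secreted antagonists Grem1, Nog and Chrd, the pseudoreceptor Bambi, and the inhibitor of differentiation genes Id1, Id2 and Id3. They were chosen by name out of the 54532 genes in the deposited count table, and all 10 were in it. The study asked how Wnt signaling and O-GlcNAcylation, the attachment of a single sugar to proteins by O-GlcNAc transferase (OGT), act on bone-forming cells. Messenger RNA of ST2 cells, a wild-type mouse bone marrow stromal line that the labels call mesenchymal stem cells, was sequenced in 9 libraries after 72 h with vehicle, with 50 ng/ml recombinant human Wnt3a (rhWnt3a), or with rhWnt3a and 20 µM of the OGT inhibitor OSMI, 3 libraries in each group. The sample titles give rhWnt3a together with OSMI for the last group, and were followed here, whereas another label names OSMI alone, and no library of cells given OSMI without rhWnt3a was analysed here. All groups came from a single cell line.

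BMPs are secreted dimers that bind paired type I and type II serine/threonine kinase receptors, which phosphorylate SMAD1, SMAD5 and SMAD9. These enter the nucleus with SMAD4 and switch on target genes, among which the Id genes are the classical early readout. Id proteins lack a DNA-binding domain and hold E proteins away from DNA, gremlin, noggin and chordin trap BMPs outside the cell, and BAMBI resembles a type I receptor without a kinase. In marrow stromal cells BMP signaling drives osteoblast and cartilage differentiation and is interwoven with Wnt signaling.

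The libraries held 16135898 to 17583945 counts each. At this depth 3 counts, used as the lowest level to be read as expression, corresponded to 0.17 to 0.191 CPM, the count of a gene relative to its library total, with totals scaled by TMM. In each group 1 library lay apart from the other pair over all tested genes, namely vehicle replicate 3, rhWnt3a replicate 2 and OSMI replicate 3. The first axis of the deviations from the group means held 54.8% of their variance, with vehicle replicates 1 and 2, rhWnt3a replicates 1 and 3 and OSMI replicate 3 on one side and the remaining 4 libraries on the other. Of the 7 stromal markers, Pdgfra, Pdgfrb, Col1a1 and Col1a2 had at least 2164 counts and Cxcl12 and Vcam1 at least 448 in every library, while Thy1 was at 0 to 0.23 CPM. They were not level between the groups, since Cxcl12 and Vcam1 fell with rhWnt3a, and the list summed to 18000 to 24700 CPM with vehicle, 14800 to 18000 with rhWnt3a and 8240 to 16000 with OSMI added. Most of that sum was collagen RNA. Mean Col1a1 was 10100, 6960 and 4060 CPM in the same order, and mean Col1a2 was 9350, 8420 and 5650. The 4 leukocyte markers summed to 1.1 to 1.98 CPM with vehicle, 0.419 to 0.852 with rhWnt3a and 0.35 to 1.21 with OSMI added. Most of this was Cd68, at up to 1.7 CPM, and Csf1r, at up to 0.344, while Ptprc and Adgre1 did not pass 0.127 in any library. The 3 endothelial markers summed to 0.255 to 0.428, 0.0608 to 0.239 and 0.0605 to 0.291 CPM, nearly all Pecam1, with Kdr and Cdh5 at no more than 1 count. The 2 epithelial markers summed to 0.17 to 0.191, 0 to 0.179 and 0 to 0.0583 CPM, nearly all Cdh1, with Epcam at no more than 1 count.

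The RefSeq promoter table for GRCm38.p6 held 6 of the 10 members (Bmp4, Bmp6, Grem1, Chrd, Id2 and Id3). Shown here are the windows, from 250 bases before to 50 after the RefSeq start, of the 3 members that changed in any comparison, Id3, Bmp6 and Chrd. The window of Id2, an Id gene that passed no test, is shown with these windows. They lie at chr4:136143572-136143871 on the + strand for Id3, chr12:25096043-25096342 on the − strand for Id2, chr13:38345466-38345765 on the + strand for Bmp6 and chr16:20732877-20733176 on the + strand for Chrd, and are written 5′ to 3′ on the gene's strand. Capitals mark every match to the GC-rich SMAD1/5 motif GGCGCC, to the SMAD box GTCT, and to the TCF/LEF motifs, which are CTTTGA and its variant CTTTGT with another last letter. All were searched on both strands, and no match overlapped that of another motif. The windows of Id3, Id2 and Bmp6 lie wholly inside the span of the gene in the count table, which begins upstream of the RefSeq start used. Most of the Chrd window lies before its gene span.
Id3: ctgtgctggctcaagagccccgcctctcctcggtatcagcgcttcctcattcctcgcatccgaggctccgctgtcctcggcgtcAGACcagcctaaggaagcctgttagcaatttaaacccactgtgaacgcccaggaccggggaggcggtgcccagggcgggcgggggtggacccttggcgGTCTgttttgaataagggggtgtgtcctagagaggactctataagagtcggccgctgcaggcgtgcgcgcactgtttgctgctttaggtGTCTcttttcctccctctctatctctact
Id2: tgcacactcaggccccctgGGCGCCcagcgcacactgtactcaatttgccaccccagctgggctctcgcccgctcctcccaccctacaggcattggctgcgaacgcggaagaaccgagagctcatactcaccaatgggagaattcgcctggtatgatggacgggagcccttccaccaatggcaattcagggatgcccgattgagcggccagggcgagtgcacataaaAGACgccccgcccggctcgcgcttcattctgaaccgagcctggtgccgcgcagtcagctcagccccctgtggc
Bmp6: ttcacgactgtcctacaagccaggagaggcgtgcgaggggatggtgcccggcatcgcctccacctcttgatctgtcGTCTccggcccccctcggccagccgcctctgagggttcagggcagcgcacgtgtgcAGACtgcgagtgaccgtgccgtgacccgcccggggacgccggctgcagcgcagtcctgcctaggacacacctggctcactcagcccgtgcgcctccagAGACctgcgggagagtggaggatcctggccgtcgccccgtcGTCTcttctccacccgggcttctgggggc
Chrd: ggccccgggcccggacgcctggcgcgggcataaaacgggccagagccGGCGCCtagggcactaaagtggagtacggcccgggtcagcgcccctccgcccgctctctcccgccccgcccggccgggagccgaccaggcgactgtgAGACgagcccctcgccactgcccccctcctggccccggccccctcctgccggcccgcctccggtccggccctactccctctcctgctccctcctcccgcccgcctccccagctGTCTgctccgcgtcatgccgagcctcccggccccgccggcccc
The capitals in these windows come from the SMAD motifs alone. GGCGCC was present once in the Id2 window and once in the Chrd window, and is held by 11.9% of the 32851 promoters in the table. The SMAD box occurred 3 times in Id3, 1 time in Id2, 4 times in Bmp6 and 2 times in Chrd, against a median of 2 matches and a share of 88% over all promoters. No match to CTTTGA, held by 16% of all promoters, or CTTTGT, held by 18.7%, was found in these 4 windows, which says only that the letters are not there. The window of Grem1, a tested member that also passed no test, is not printed. It held 6 SMAD boxes, 1 match to GGCGCC and 1 to CTTTGT. That of Bmp4, which was not tested, held 2 SMAD boxes and none of the other motifs. The motif counts of the called members Id3, Bmp6 and Chrd thus overlapped those of Id2 and Grem1, which were not called. So few windows cannot show whether the motifs differ between such members. The GC contents were 60% for Id3, 63.3% for Id2, 69.3% for Bmp6 and 78.3% for Chrd, and the median of all promoters was 52.7%. Such matches are a description of the sequence and not evidence of binding.

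Seen across the 10 genes, rhWnt3a was accompanied by less Id3 and less Bmp6 RNA. With OSMI added, mean Id3 lay between the vehicle and rhWnt3a means. That step from rhWnt3a was not called, and OSMI replicate 3 lay within the rhWnt3a values. Bmp6 was down to a single count in the group with OSMI. Of the 10 members, 7 passed the filter on low counts and were tested by edgeR's quasi-likelihood test over 14004 genes, and called where the Benjamini-Hochberg adjusted p was under 0.05 and the log2 fold change was larger than 0.5 in size. Bmp6 passed that filter only through its vehicle libraries, so its values had to be lower in the other groups and its fitted differences are given as a description. In rhWnt3a against vehicle 2 of the 10 members were called, Bmp6 and Id3, both lower, where 5.86% of all tested genes were called lower and 8.78% either way. In rhWnt3a with OSMI against rhWnt3a, edgeR called 0 of the 10, against 4.74% of tested genes called either way. At an unadjusted p under 0.05 with the same fold 2 were past the threshold there (Bmp6 and Id3, 16.2% of tested genes), and DESeq2 with adjusted p also gave 2. In rhWnt3a with OSMI against vehicle 3 were called (Bmp6, Chrd and Id3), all lower, against 9.34% of tested genes called lower. The median log2 fold change of the 7 tested members was −0.79 in rhWnt3a against vehicle, −0.44 in rhWnt3a with OSMI against rhWnt3a and −1.08 in rhWnt3a with OSMI against vehicle, and that of all tested genes was 0.04, −0.01 and −0.01. Of the 6 tested members other than Bmp6, 1, 0 and 2 were called in the same order, and their median was −0.68, −0.20 and −1.04. The comparisons share libraries and are given side by side. The paper calls the 3 libraries per group biological replicates in the legend of its heatmap, without saying how the cultures were kept separate. The p-values set each difference against the spread between these libraries. The smallest p that an exact two-sided permutation of 3 against 3 libraries can give is 0.1, so each call leans on the spread shared across genes. In bulk RNA, fewer cells expressing a gene and less RNA per cell cannot be told apart.

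**Figure D1:**
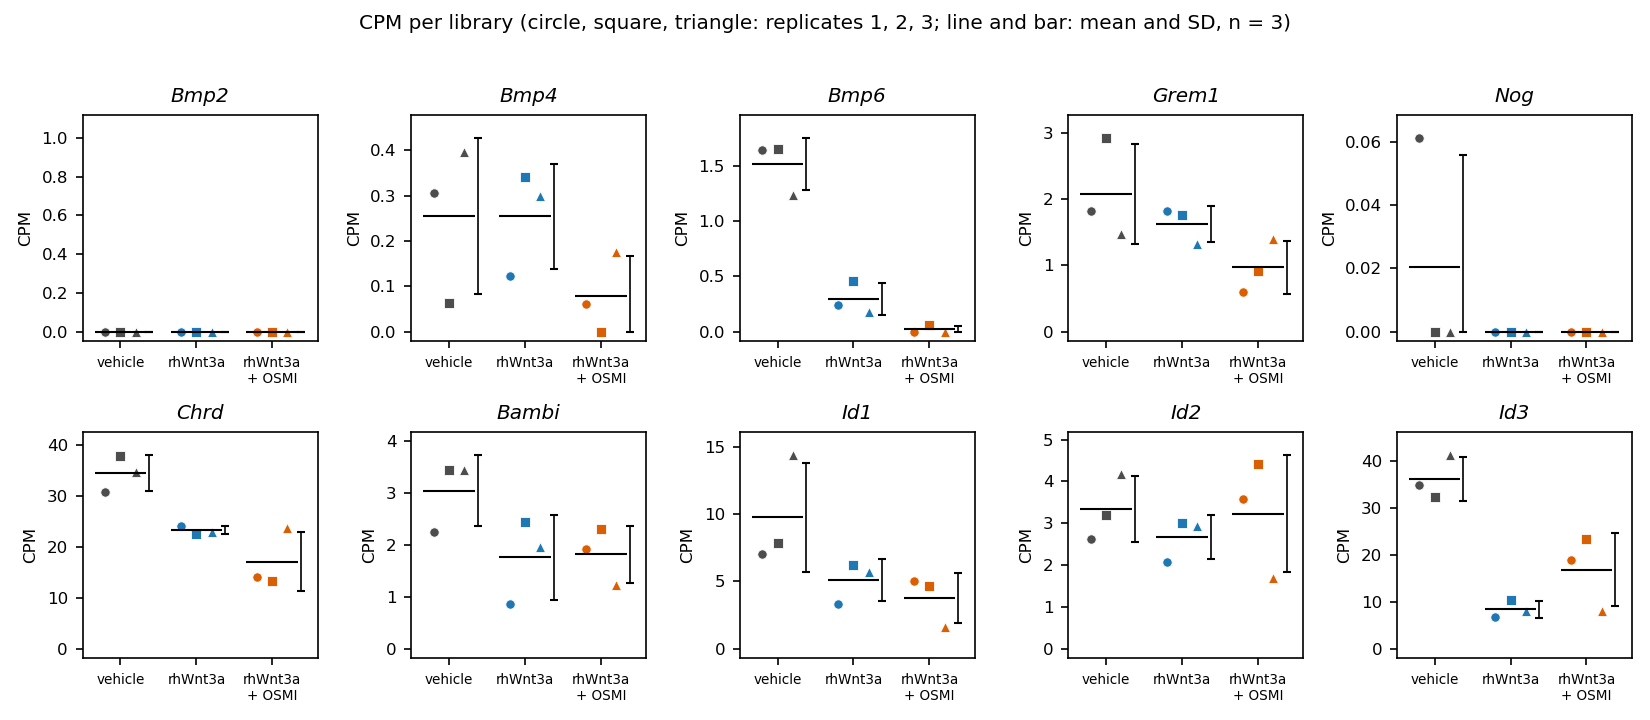
CPM of each of the 10 members in each of the 9 libraries, with the group mean as a line and the SD (n = 3, cut at 0) as a bar. Id3 and Bmp6 sit lower in the 3 rhWnt3a libraries than in the 3 vehicle libraries without overlap, Bmp2 and Nog lie at or near 0, and every panel has its own linear axis.

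Per kilobase of the gene length in the table, Id3 was the most abundant member with vehicle at 20.2 ± 2.57 CPM per kb (SD, n = 3), followed by Id1 at 8.41 ± 3.5 and Chrd at 5.51 ± 0.57. Id2 was at 1.37 ± 0.324, Bambi at 0.605 ± 0.136, Grem1 at 0.501 ± 0.183, Bmp6 at 0.389 ± 0.0605 and Bmp4 at 0.113 ± 0.0764 CPM per kb. The SDs of Id1 and Chrd overlapped, as did those of Bambi and Grem1 and those of Grem1 and Bmp6. With rhWnt3a the top 3 drew together, at 4.66 ± 1.05 CPM per kb for Id3, 4.41 ± 1.34 for Id1 and 3.72 ± 0.135 for Chrd, differences within the spread between libraries. With rhWnt3a and OSMI the order was again Id3 (9.37 ± 4.37), Id1 (3.25 ± 1.6) and Chrd (2.74 ± 0.929), with overlapping SDs between Id1 and Chrd. Bmp6 was below Bmp4 on this scale in that group, at 0.00491 ± 0.0085 against 0.0349 ± 0.0395 CPM per kb, both with 3 counts or fewer in every library.

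Among the ligands, hardly any Bmp2, Bmp4 or Bmp6 RNA was measured, and Bmp6, a BMP of bone and of iron control, was the only one of the 3 with enough counts to be tested. Bmp2, a potent osteoinductive ligand, had 0 counts in all 9 libraries, so its level was not detectable at this depth. Bmp4, the ligand of many mesenchymal niches, had 5, 1 and 7 counts in the vehicle libraries, 2, 6 and 5 with rhWnt3a, and 1, 0 and 3 with OSMI added. The Bmp4 groups overlapped. Their summed counts were 13 with vehicle, 13 with rhWnt3a and 4 with OSMI added, a vehicle to rhWnt3a ratio of 1.02 (95% exact interval 0.436 to 2.39, counting error only). The ratio of vehicle to rhWnt3a with OSMI was 3.34 (1.03 to 14.1). That interval leaves out the spread between libraries, and DESeq2 gave this difference an adjusted p of 0.379.

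Bmp6 (ENSMUSG00000039004, chromosome 13, 38345107 to 38500302, + strand, GRCm38) had 27, 26 and 22 counts in the vehicle libraries, 4, 8 and 3 with rhWnt3a, and 0, 1 and 0 with OSMI added. In CPM these were 1.65, 1.66 and 1.24, then 0.243, 0.455 and 0.179, then 0, 0.0574 and 0. No library of one group reached into the range of the next. The fitted difference with rhWnt3a was −2.33 on the log2 scale (SE 0.47, adjusted p = 0.0113 by edgeR) with the filter that Bmp6 passed through vehicle, and −2.35 (adjusted p = 0.00371) with no filter, and the summed counts of 75 and 15 gave a vehicle to rhWnt3a ratio of 5.1 (95% exact interval 2.9 to 9.56, counting error only). This call was lost without vehicle replicate 2 (adjusted p = 0.0581), rhWnt3a replicate 1 (0.069) or rhWnt3a replicate 3 (0.069), with log2 fold changes of −2.24, −2.18 and −2.08. On the 2 sides of the first axis the difference was −2.43 and −1.25 in log2 CPM, with no test.

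With OSMI added, a single Bmp6 count remained over the 3 libraries. The ratio of rhWnt3a to rhWnt3a with OSMI was 15.1 with a counting interval of 2.32 to 636, and the fitted log2 fold change of −3.49 (SE 0.88, adjusted p = 0.0527) missed the threshold. DESeq2 placed the same difference at an adjusted p of 0.0446, and over all alternatives the adjusted p ran from 0.0127 to 0.171. Against vehicle the ratio was 77.1 with an interval of 13.4 to 3080, and the fitted fall of −5.82 on the log2 scale (SE 0.7, adjusted p = 0.000599) was called in 16 of 16 alternatives that tested the gene. As Bmp6 passed the filter only through vehicle, that count is a description. Fitted values against a group with so few counts depend on the prior count. Bmp6 overlaps Txndc5 on the opposite strand, which had 3605 to 6877 counts, and they share up to 224 bases of transcript at 97% identity or more. The labels name dNTP for the second strand and the strand setting of the counting is not given in the sources used here, so how reads from that stretch were assigned is uncertain.

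Among the antagonists, Chrd fell when rhWnt3a and OSMI were given together, Grem1 passed no test, and Nog was not detectable. Nog, which encodes noggin, had 1 count in vehicle replicate 1 and 0 in the other 8 libraries. Grem1, which encodes gremlin, a cystine-knot antagonist of BMP2 and BMP4, was at 1.83, 2.93 and 1.47 CPM with vehicle, 1.83, 1.76 and 1.32 with rhWnt3a, and 0.605, 0.918 and 1.4 with OSMI added. The rhWnt3a values lay inside the vehicle range or just under it. The OSMI values all lay below the vehicle values, with OSMI replicate 3 close to vehicle replicate 3. The log2 fold change of Grem1 was −0.34 (SE 0.37, adjusted p = 0.722) with rhWnt3a against vehicle, −0.74 (SE 0.39, adjusted p = 0.287) on adding OSMI and −1.08 (SE 0.38, adjusted p = 0.09) for OSMI with rhWnt3a against vehicle. Without vehicle replicate 2 the first of these was 0.01. Grem1 transcripts share stretches of up to 103 bases with Olfr678, Olfr896-ps1 and Zfp26.

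Chrd (ENSMUSG00000006958, chromosome 16, 20733127 to 20742384, + strand), which encodes chordin, was the best-expressed antagonist of the 3. It was at 30.8, 37.9 and 34.7 CPM with vehicle, 24.2, 22.6 and 22.9 with rhWnt3a, and 14.1, 13.4 and 23.8 with OSMI added. All rhWnt3a libraries were below all vehicle libraries, and OSMI replicate 3 stayed among the rhWnt3a values while OSMI replicates 1 and 2 were lower. The fitted difference was −0.57 (SE 0.21, adjusted p = 0.15) with rhWnt3a against vehicle and −0.44 (SE 0.21, adjusted p = 0.25) on adding OSMI. Against vehicle, rhWnt3a with OSMI lowered it by a log2 fold change of −1.01 (SE 0.21, adjusted p = 0.0112), a 2.01-fold lower level. That call was lost without vehicle replicate 2 (adjusted p = 0.0594), OSMI replicate 1 (0.0633) or OSMI replicate 2 (0.0583). Without OSMI replicate 3 Chrd passed the threshold in all 3 comparisons, with −0.57 (adjusted p = 0.0139) for rhWnt3a against vehicle and −0.75 (adjusted p = 0.0163) for adding OSMI. On the sides of the first axis the step from rhWnt3a to rhWnt3a with OSMI was 0.02 and −0.71, with no test. Thpo, which overlaps Chrd on the opposite strand, had 3 to 31 counts.

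Bambi, the pseudoreceptor and a gene known to respond to both Wnt and BMP, passed no test. It was at 2.26, 3.44 and 3.45 CPM with vehicle, 0.852, 2.44 and 1.97 with rhWnt3a, and 1.93, 2.3 and 1.22 with OSMI added. Single libraries overlapped between vehicle and each of the other groups. The log2 fold changes were −0.79 (SE 0.39, adjusted p = 0.308), 0.05 (SE 0.4, adjusted p = 0.955) and, for the third comparison, −0.74 (SE 0.39, adjusted p = 0.229).

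Among the Id genes, Id3 fell with rhWnt3a, Id1 had lower values that missed the threshold, and Id2 passed no test and overlapped between all groups. All 3 had negative log2 fold changes with rhWnt3a, and the differences between these genes were not tested. Id3 (ENSMUSG00000007872, chromosome 4, 136143497 to 136145755, + strand) was at 34.8, 32.3 and 41.2 CPM with vehicle, 6.63, 10.3 and 8.08 with rhWnt3a, and 18.9, 23.3 and 8.1 with OSMI added. The highest rhWnt3a library was thus far below the lowest vehicle library. OSMI replicates 1 and 2 lay between the other groups, and OSMI replicate 3 was level with rhWnt3a replicate 3. With rhWnt3a against vehicle Id3 fell by a log2 fold change of −2.11 (SE 0.34, adjusted p = 0.00357), a 4.32-fold lower level, and this call stood in 17 of 17 alternatives, with log2 fold changes from −2.29 to −1.93. On the sides of the first axis the difference was −2.18 and −1.98, with no test.

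On adding OSMI the Id3 difference was 1.0 (SE 0.34, unadjusted p = 0.0137, adjusted p = 0.119), in the direction opposite to that of rhWnt3a, and was called in 5 of 17 alternatives. The call depended on the test, the filter and the libraries used. With all 9 libraries, DESeq2 gave an adjusted p of 0.0391, and edgeR with no filter gave 0.00316. Without OSMI replicate 3 the edgeR difference was 1.34 (adjusted p = 0.00712), and without the 3 libraries that lay apart 1.52 (adjusted p = 1.11e-07). Those 3 were left out after seeing the data, for their distance from the others, which narrows the spread. The last p is thus a description. On the side of the axis that holds OSMI replicate 3 the difference was 0.14, and on the side that holds OSMI replicates 1 and 2 it was 1.01, with no test. Against vehicle, Id3 was still lower with rhWnt3a and OSMI, by −1.11 (SE 0.33, adjusted p = 0.0473), a call that stood in 9 of 17 alternatives. The call was lost without any 1 of the vehicle libraries (adjusted p = 0.0978, 0.0987 and 0.112 for replicates 1 to 3), without rhWnt3a replicate 1 (0.0665) or 3 (0.0734), and without OSMI replicate 1 (0.0899).

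Id1 (ENSMUSG00000042745, chromosome 2, 152736251 to 152737410, + strand) was at 7.02, 7.84 and 14.4 CPM with vehicle, 3.35, 6.25 and 5.74 with rhWnt3a, and 5.02, 4.65 and 1.63 with OSMI added. Every rhWnt3a and every OSMI library was below every vehicle library. The log2 fold change was −0.93 (SE 0.42, adjusted p = 0.258) for rhWnt3a against vehicle, −0.44 (SE 0.44, adjusted p = 0.559) on adding OSMI, and −1.38 (SE 0.43, adjusted p = 0.0587) for rhWnt3a with OSMI against vehicle. DESeq2 gave an adjusted p of 0.0125 for the last. Id2 (ENSMUSG00000020644, chromosome 12, 25093799 to 25097140, − strand) was at 2.63, 3.19 and 4.18 CPM with vehicle, 2.07, 3.01 and 2.93 with rhWnt3a, and 3.57, 4.42 and 1.69 with OSMI added. These ranges overlapped in every comparison, and the log2 fold changes of Id2 were −0.32 (SE 0.35, adjusted p = 0.728), 0.27 (SE 0.35, adjusted p = 0.665) and −0.05 (SE 0.35, adjusted p = 0.942). Vehicle replicate 3 was the highest and OSMI replicate 3 the lowest library of its group for each of Id1, Id2 and Id3, and rhWnt3a replicate 2 was the highest of its group for all 3. These are the libraries that lay apart over all genes, and their part in the Id values beyond the fits without them was not tested.

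**Figure D2:**
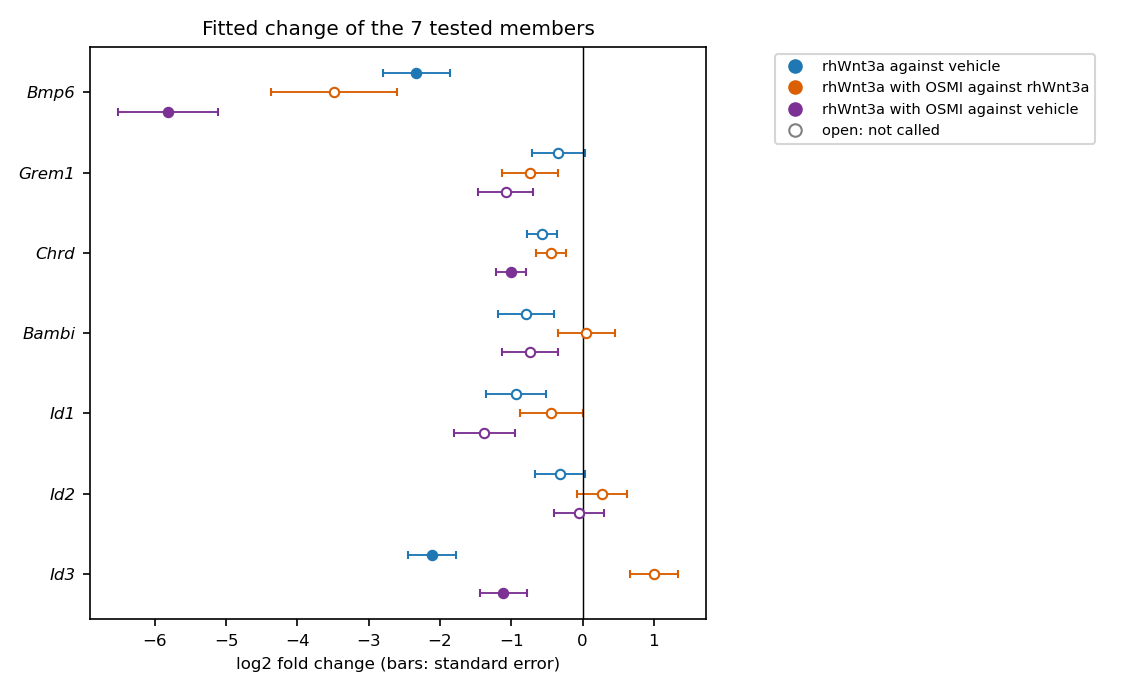
Fitted log2 fold change of the 7 tested members in the 3 comparisons, with bars for the SE and filled points for calls. Filled points are Bmp6 (−2.33) and Id3 (−2.11) for rhWnt3a against vehicle, and Bmp6, Chrd and Id3 for rhWnt3a with OSMI against vehicle, all left of 0.

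Counted by libraries rather than by the fit, 4 of the 7 tested members (Chrd, Id1, Id3 and, by way of the filter, Bmp6) had all rhWnt3a libraries below all vehicle libraries, where 14.2% of tested genes did. With OSMI added to rhWnt3a, 1 member (Bmp6) was lower without overlap, against 17% of tested genes. For rhWnt3a with OSMI against vehicle, 5 members (Grem1, Chrd, Id1, Id3 and, by way of the filter, Bmp6) were lower without overlap, against 19.5%.

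**Figure D3:**
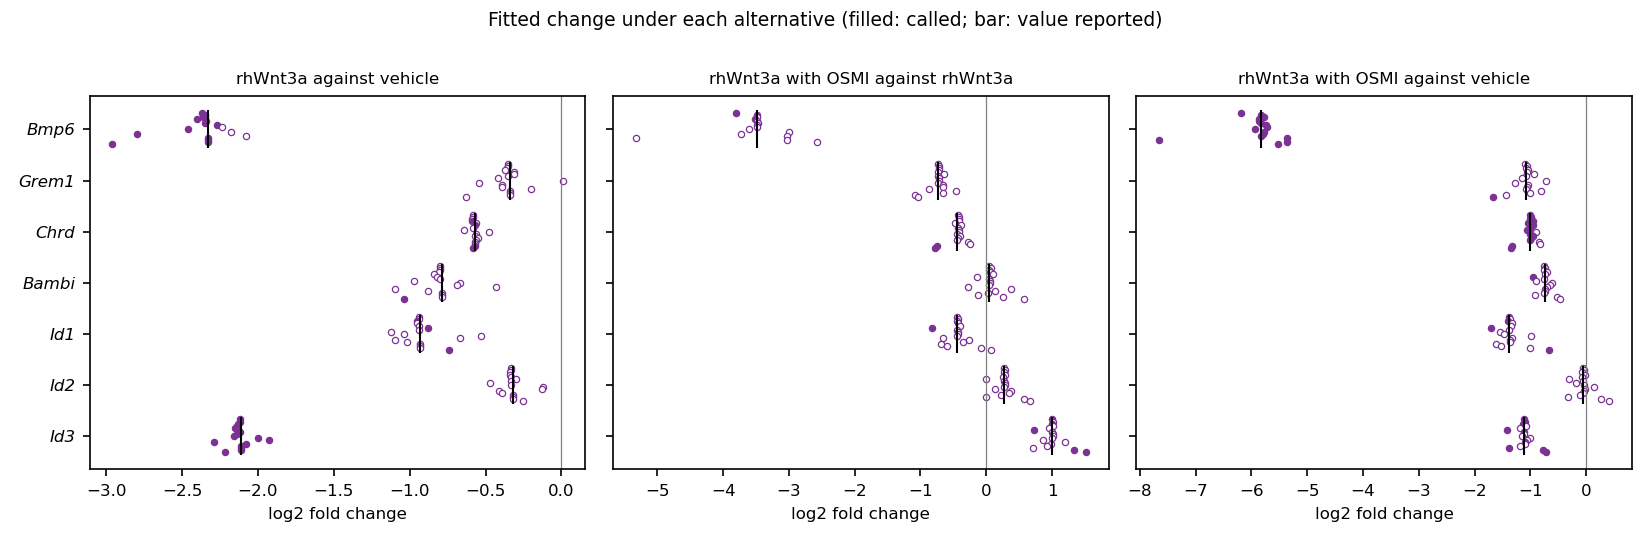
Log2 fold change of each tested member under each alternative way of processing, 1 panel per comparison, filled where called, with a bar at the value reported. Id3 keeps filled points from −2.29 to −1.93 in rhWnt3a against vehicle, while its points for adding OSMI spread from 0.71 to 1.52 and are mostly open.

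By likeness of log2 CPM over the 9 libraries, the genes nearest to Id3 were Prl2c2 (Pearson r = 0.99), which has near-identical family members among which reads can be divided, Acta2 (0.98), the smooth-muscle actin, and Myl9 (0.975), a myosin light chain. Those nearest to Bmp6 were Kazald1 (0.992), Vim (0.991), the intermediate filament vimentin, and Gulp1 (0.988), and those nearest to Chrd were Col5a2 (0.986), a fibrillar collagen chain, Nek6 (0.973) and Fkbp10 (0.969), a collagen chaperone. All of these points share the same 9 libraries in 3 groups, so the values describe the group pattern.

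Around the members, 56 other genes of the pathway were listed by role, and 40 of them were tested. In rhWnt3a against vehicle 3 rose and 6 fell, in rhWnt3a with OSMI against rhWnt3a 1 rose and 6 fell, and in rhWnt3a with OSMI against vehicle 3 rose and 9 fell, against backgrounds of 2.92% and 5.86%, 1.69% and 3.05%, and 4.84% and 9.34% of tested genes called higher and lower. Their median log2 fold change was 0.03, −0.05 and −0.11. Id4 and Hjv passed the filter on low counts only through vehicle, and among the other 38 tested genes 3 rose and 4 fell, 1 rose and 6 fell, and 3 rose and 7 fell.

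**Figure D4:**
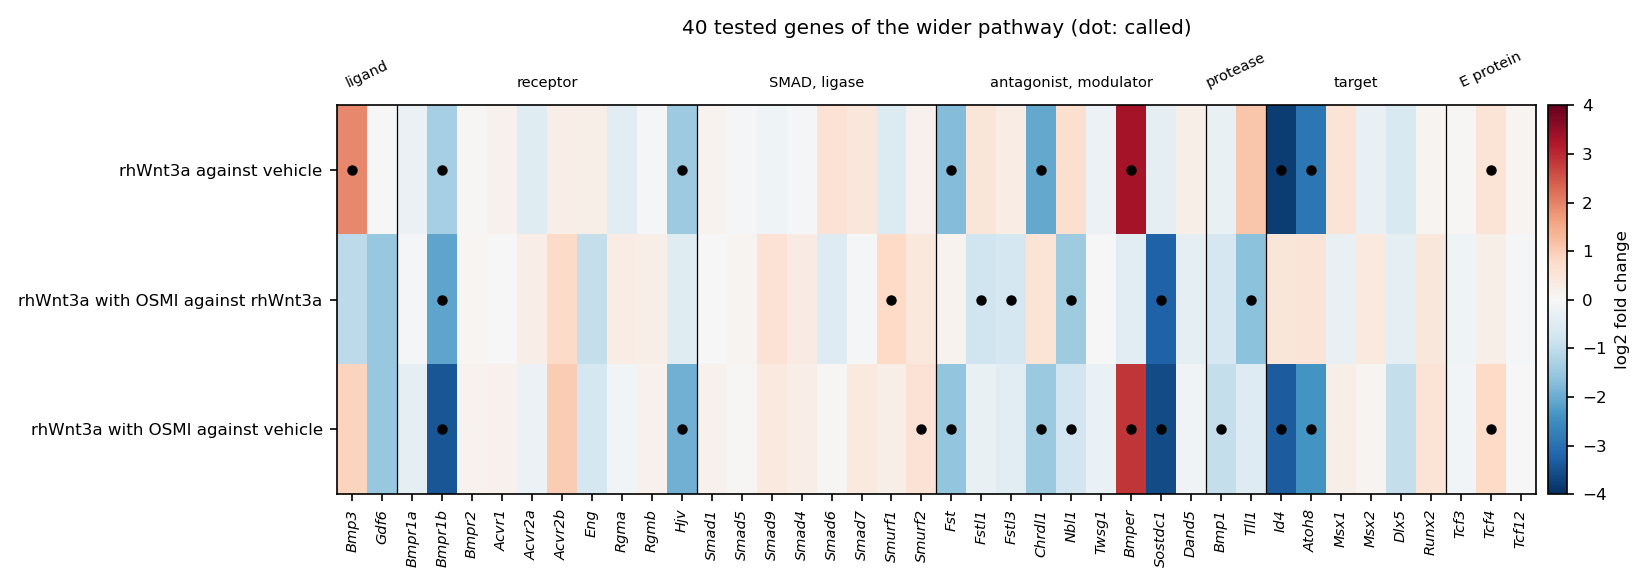
Log2 fold change (color, from −4 to 4) of the 40 tested pathway genes outside the 10 members, grouped by role, in the 3 comparisons, with a dot for each call. The dots in the top row are Bmp3, Bmper and Tcf4 among the rises, and Bmpr1b, Hjv, Fst, Chrdl1, Id4 and Atoh8 among the falls, and the SMAD genes carry none.

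Of the 6 tested genes in the list of other targets, Id4 and Atoh8 were called lower with rhWnt3a and 4 were not called. Id4, the fourth Id gene, was at 3.79, 5.22 and 5.32 CPM with vehicle, 0.243, 0.398 and 0.359 with rhWnt3a, and 0.181, 1.03 and 0.175 with OSMI added. It passed the filter only through vehicle, as Bmp6 did. The fitted difference was −3.81 on the log2 scale with rhWnt3a (SE 0.56, adjusted p = 0.00213; 4.48e-10 with no filter) and −3.33 with rhWnt3a and OSMI against vehicle (adjusted p = 0.00265), while adding OSMI gave 0.47 (adjusted p = 0.689), which turned to −0.85 without OSMI replicate 2. Atoh8, a basic helix-loop-helix factor induced by BMP6 in liver, was at 5.13, 3.95 and 3.34 CPM with vehicle, 0.852, 0.455 and 0.359 with rhWnt3a, and 0.786, 0.517 and 1.05 with OSMI added. Its changes were −2.89 (SE 0.39, adjusted p = 0.00121), 0.50 (adjusted p = 0.501) and −2.39 (adjusted p = 0.00219). The calls of Atoh8 against vehicle stood in all 16 alternatives that tested it. Those of Id4 did too, but as Id4 passed the filter only through vehicle, its count of alternatives is a description. The other 4 tested targets, the homeobox genes Msx1, Msx2 and Dlx5 and the osteoblast factor Runx2, passed no test, with log2 fold changes of 0.54, −0.29, −0.60 and 0.12 for rhWnt3a against vehicle.

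Of the partners of Id proteins, Tcf4 (E2-2) was higher with rhWnt3a, at 334, 296 and 317 CPM against 224, 214 and 208 with vehicle, and at 342, 369 and 410 with OSMI added. Its log2 fold change was 0.55 (SE 0.13, adjusted p = 0.022) with rhWnt3a and 0.80 (SE 0.13, adjusted p = 0.00255) with rhWnt3a and OSMI against vehicle. The first passed in 4 of the 9 fits without 1 library (highest adjusted p = 0.0922, without rhWnt3a replicate 3, and also lost without vehicle replicate 1 or 2, rhWnt3a replicate 1 or OSMI replicate 2). Tcf3 and Tcf12, the other E proteins, differed by 0.05 and 0.12 with rhWnt3a and were not called.

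The secreted modulators moved in both directions. Bmper, a chordin-domain protein that binds BMPs and can hinder or help them, was at 10, 10.5 and 17.1 CPM with vehicle, 129, 130 and 122 with rhWnt3a, and 87.4, 88.4 and 101 with OSMI added. The groups were fully apart, and the rise with rhWnt3a was 3.34 on the log2 scale (SE 0.21, adjusted p = 1.95e-05), the smallest adjusted p among the 40 tested. Adding OSMI gave −0.46 (SE 0.19, adjusted p = 0.184), and rhWnt3a with OSMI stood 2.87 above vehicle (adjusted p = 2.86e-05). Fst, which encodes follistatin, a trap of activins and some BMPs, went from 103, 98.2 and 99.4 CPM to 28.9, 37.7 and 24.3 with rhWnt3a and 28.3, 33.9 and 38.1 with OSMI added. It fell by −1.73 (SE 0.18, adjusted p = 0.000293) and differed by 0.14 (adjusted p = 0.647) on adding OSMI. Chrdl1, a chordin-like antagonist, fell by −2.04 with rhWnt3a (SE 0.3, adjusted p = 0.0021), from a mean of 2.95 ± 0.0949 CPM to 0.714 ± 0.231 (SD, n = 3). Calls of Bmper, Fst and Chrdl1 against vehicle stood in every fit without 1 library.

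Nbl1, Sostdc1, Tll1, Fstl1 and Fstl3 were called lower on adding OSMI and not with rhWnt3a alone, though the difference between these steps was not tested. Against vehicle, rhWnt3a with OSMI was called lower for Nbl1 and Sostdc1. It was not called for Tll1, Fstl1 or Fstl3 (adjusted p = 0.32, 0.247 and 0.125). With vehicle, Tll1 was at 4.64, 4.33 and 3.34 CPM, and Fstl1 and Fstl3 had means of 583 ± 62.9 and 29.2 ± 1.67. For Nbl1, Tll1 and Fstl1 all rhWnt3a libraries lay above all vehicle libraries, without a call. Nbl1, the antagonist DAN, was at 39, 36.3 and 39.7 CPM with vehicle, 51.8, 66.9 and 58.7 with rhWnt3a, and 21.2, 17.3 and 28.3 with OSMI added. The step on adding OSMI was −1.41 (SE 0.18, adjusted p = 0.00395), called in 17 of 17 alternatives, and that with rhWnt3a 0.63 (adjusted p = 0.0636). Sostdc1, a Wnt and BMP antagonist, had 20, 16 and 27 counts with vehicle, 17, 14 and 19 with rhWnt3a, and 1, 1 and 3 with OSMI added. The summed counts of 50 and 5 gave a ratio of rhWnt3a to rhWnt3a with OSMI of 10.1 (95% exact interval 4.04 to 32.4), and the fitted change had an adjusted p of 0.00775. Sostdc1 reached the filter's level in every vehicle and rhWnt3a library and in no OSMI library. It was thus tested by way of the groups where it was high, and its differences with OSMI are a description. Tll1, a protease that cleaves chordin, went from 9.55, 7.28 and 9.87 CPM with rhWnt3a to 1.63, 2.35 and 4.49 with OSMI added, by −1.65 (SE 0.33, adjusted p = 0.0237), and passed in 4 of the 9 fits without 1 library (lost without vehicle replicate 2, rhWnt3a replicate 1 or 3, or OSMI replicate 1 or 2, highest adjusted p = 0.106). Fstl1 and Fstl3, which encode follistatin-like proteins, were at means of 814 ± 44.2 and 35.8 ± 6.17 CPM with rhWnt3a and 472 ± 87.4 and 22 ± 3.18 with OSMI added. They differed by −0.79 (adjusted p = 0.0285) and −0.70 (adjusted p = 0.0414), and each passed in 2 of the 9 fits without 1 library, Fstl1 without vehicle replicate 3 or OSMI replicate 3 and Fstl3 without vehicle replicate 3 or rhWnt3a replicate 2, with adjusted p up to 0.134 and 0.145. Bmp1, the founding chordin protease, was lower with rhWnt3a and OSMI than with vehicle by −0.96 (SE 0.18, adjusted p = 0.00666), at means of 74 ± 19.2 and 144 ± 15.4 CPM.

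Among the receptors, Bmpr1b and Hjv were called lower. Bmpr1b, a type I receptor tied to cartilage, had 44, 43 and 42 counts with vehicle, 20, 13 and 19 with rhWnt3a, and 3, 3 and 6 with OSMI added. It reached the filter's level in every vehicle and rhWnt3a library and in no OSMI library. Bmpr1b was thus tested by way of the groups where it was high, and its differences with OSMI are a description. Its fall was −1.33 with rhWnt3a (SE 0.31, adjusted p = 0.0242), −2.10 on adding OSMI (SE 0.4, adjusted p = 0.0184) and −3.43 over both (SE 0.37, adjusted p = 0.000348). The first passed in 4 and the second in 5 of the 9 fits without 1 library, with adjusted p up to 0.0991 (without vehicle replicate 2) and 0.0885 (without OSMI replicate 2), and the third passed in all 9. The first was lost without vehicle replicate 1 or 2 or any 1 of the rhWnt3a libraries, and the second without rhWnt3a replicate 1 or 3 or OSMI replicate 1 or 2. Hjv, the coreceptor hemojuvelin, which passed the filter only through vehicle, differed by −1.45 with rhWnt3a (adjusted p = 0.0319, 0.0612 with no filter, called in 3 of the 9 such fits, lost without vehicle replicate 1 or 2, any 1 of the rhWnt3a libraries or OSMI replicate 1, and reaching 0.149 without rhWnt3a replicate 1) and by −1.93 with rhWnt3a and OSMI against vehicle (adjusted p = 0.00728, called in all 9). The broadly expressed receptors Bmpr1a (180, 164 and 166 CPM with vehicle, 142, 137 and 140 with rhWnt3a, 133, 144 and 120 with OSMI added), Bmpr2 and Acvr1 passed no test. Acvr2a, a type II receptor, was at 56.1, 53.5 and 50 CPM with vehicle and 36.9, 36.5 and 41.5 with rhWnt3a. Its difference of −0.48 (SE 0.11, adjusted p = 0.0282) missed only the threshold on the fold change.

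Of 8 genes for SMADs and SMAD ubiquitin ligases none was called with rhWnt3a against vehicle, and Smurf1 (0.80, adjusted p = 0.0449, on adding OSMI) and Smurf2 (0.58, adjusted p = 0.0335, with rhWnt3a and OSMI against vehicle) each rose in 1 comparison. The Smurf1 call passed in 1 of the 9 fits without 1 library (without vehicle replicate 3, adjusted p up to 0.109) and that of Smurf2 in 3 (without rhWnt3a replicate 1 or 2 or OSMI replicate 1, adjusted p up to 0.0833). The inhibitory SMADs, themselves targets of the pathway, had log2 fold changes of 0.57 (Smad6, adjusted p = 0.163) and 0.46 (Smad7, adjusted p = 0.212) with rhWnt3a, in the direction opposite to that of Id3. Smad6 was at 13, 11.9 and 10.9 CPM with vehicle and 17.8, 17.7 and 17.8 with rhWnt3a. Among 12 further BMP and GDF ligands, 2 were tested, and Bmp3, which acts against osteogenic BMPs, rose with rhWnt3a by 1.93 (SE 0.46, adjusted p = 0.0273), at 36.7, 28.8 and 34.8 CPM against 11.4, 8.73 and 6.28. It passed in 4 of those 9 fits and was lost without any 1 of the vehicle libraries or without rhWnt3a replicate 1 or 3 (adjusted p up to 0.104). Bmp3, Fstl1, Fstl3, Smad6, Smad7, Smurf1, Smurf2 and the named members of lists without a call were picked after their values were seen, as were Bmpr1a, Acvr2a, Runx2 and the Msx and Dlx genes.

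Markers of stromal and other cell types also changed with rhWnt3a. Of the chondrocyte markers all 3 that were tested fell with rhWnt3a, with Col2a1 at −3.40 (adjusted p = 1.17e-05), Sox9 at −1.0 (adjusted p = 0.0205, lost without vehicle replicate 1 or 2 or any 1 of the rhWnt3a libraries, up to 0.096) and Cnmd at −8.39 (adjusted p = 1.31e-05), and the summed level of the 4 listed went from 408 to 541 CPM with vehicle to 93.2 to 120 with rhWnt3a and 79 to 128 with OSMI added. Cnmd had 2089 to 2147 counts in the vehicle libraries and no more than 11 in any other. It passed the filter on low counts only through vehicle, so its fitted difference is a description. The adipocyte markers Fabp4 and Pparg fell by −2.49 and −1.73, and their list of 4 summed to 42 to 50.8, 10.3 to 13 and 11.7 to 14.4 CPM, while Adipoq and Plin1 stayed at 0 to 0.175 CPM. Pparg was the marker that rose on adding OSMI, by 0.63 (adjusted p = 0.0374, lost without vehicle replicate 2, any 1 of the rhWnt3a libraries or OSMI replicate 1 or 2, up to 0.144). Of the stromal markers, Cxcl12, a chemokine of marrow stroma, fell from 1320 ± 75.7 CPM (SD, n = 3) with vehicle to 266 ± 18.1 with rhWnt3a, by −2.31 (adjusted p = 1.64e-05), and was at 358 ± 21.3 with OSMI added. Vcam1, an adhesion molecule, fell by −0.93 with rhWnt3a (adjusted p = 0.0024) and by −0.96 on adding OSMI (adjusted p = 0.00666, 0.0525 without OSMI replicate 2). Col1a1, a chain of type I collagen, was lower by −1.31 with rhWnt3a and OSMI than with vehicle (adjusted p = 0.0241, lost without vehicle replicate 1 or 2 or OSMI replicate 1 or 2, up to 0.102). The osteoblast markers Bglap, Ibsp, Sp7 and Alpl summed to no more than 0.637 CPM in any library. Whether these markers and the members changed in the same cells was not tested.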

How the data were processed

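RNA of 9 ST2 libraries was analysed, 3 per group. The authors deposited, per library, whole-number counts of reads per gene, not normalized, and the submitters' processing notes name CASAVA, fastp, HISAT2 2.0.5, featureCounts 1.5.0-p3 and mm10. The strand setting and annotation release are not given in the sources used here. The 9 deposited columns of FPKM per library and the authors' own comparisons (fold changes and p-values) were not used.

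Counts were tested in R 4.3.3 with edgeR 4.0.16: genes kept by filterByExpr (minimum count 10, minimum total 15, leaving 14004), TMM scaling, a quasi-likelihood fit of all 9 libraries on the 3 groups, two-sided tests and Benjamini-Hochberg adjustment within each comparison. Genes were called at a log2 fold change larger than 0.5 in size with adjusted p under 0.05. The common dispersion was 0.0452. Log2 CPM used a prior count of 2. The scripts were tested on simulated data. Counting intervals (95%) are exact and cover counting error only. DESeq2 1.42.0, other filters and scaling, a replicate block, the side of the first axis and leaving out libraries were alternatives. BLAST 2.17.0 searched GENCODE M21 for other genes at 97% identity over 100 bases or more.

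The members, the pathway lists and the marker lists were chosen with earlier results of these data known. Named were the 10 members in every library, up to 12 other called pathway genes by smallest adjusted p, and, for each called member, the 3 genes with average log2 CPM above 1 most alike by Pearson r. Listed genes that are not named enter the counts only, and 1 gene was left out of the pathway list and is not reported here. Genes named beyond this were chosen after their values were seen.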

Additional observations from a re-analysis of the deposited data

How the results depend on the processing

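Counts of calls are given in the order of the comparisons: rhWnt3a against vehicle first, then the addition of OSMI to rhWnt3a, and last both agents against vehicle. As reported they were 2, 0 and 3 members, 9, 7 and 12 other pathway genes, and 1230, 664 and 1986 of all genes. Leaving out 1 library gave 1 to 3, 0 to 2 and 1 to 3 members, 5 to 12, 2 to 8 and 10 to 14 pathway genes, and 716 to 1506, 203 to 764 and 1218 to 2328 of all genes. Size factors of the DESeq2 type moved no count by over 1.5 times. For OSMI added to rhWnt3a, 2 members were called by DESeq2 (1236 of all genes), with no filter (1481) and at an unadjusted p (12 pathway genes, 2271 of all), and the 6 libraries of the comparison alone gave 2 pathway genes and 345 of all. At an unadjusted p, rhWnt3a with OSMI against vehicle had 5 members, with 2155 and 3186 of all genes in the comparisons with vehicle. At least 10 counts in every library left 1 member and 4 pathway genes for rhWnt3a and 6 pathway genes for rhWnt3a with OSMI, both against vehicle, since fewer genes were then tested (Bmp6 not).

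The side of the first axis as a covariate gave 4, 3 and 5 members, 14 pathway genes with rhWnt3a and 14 on adding OSMI, and 2033, 4033 and 4670 of all genes. Without the 3 libraries that lay apart, an alternative chosen after seeing the data, there were 5, 2 and 5 members, 16, 11 and 19 pathway genes, and 2557, 1789 and 3351 of all genes. The cause of these shifts was not tested.

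The replicate numbers in the titles share no stated origin. The mean correlation of same-numbered deviations was −0.18, 0.13 and −0.31, with single values from −0.49 to 0.44. Of 6 libraries, 2, 2 and 0 correlated best with their own number. With 3 libraries in a group, these values cannot show whether the numbers pair the libraries. The replicate block gave 2, 0 and 2 members, 5, 2 and 11 pathway genes, and 809, 233 and 1297 of all genes, and Id3 had an adjusted p of 0.0735 in rhWnt3a with OSMI against vehicle.

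Signs turned in 15 cases, all of them without a call. For OSMI added to rhWnt3a, Bambi was −0.14 with the side as a covariate and −0.27 to 0.38 without 1 library, Id2 0.00 to 0.58 and Id4 −0.85 to 0.87 without 1 library, Id1 0.08 without the libraries that lay apart, Sox9 0.01 with the side as a covariate and −0.42 to 0.06 without 1 library, and Cnmd −0.08 to 1.17 without 1 library. Id2 in rhWnt3a with OSMI against vehicle was −0.32 to 0.26 without 1 library and 0.42 without the libraries that lay apart, where Bmp3 was −0.23, and Grem1 with rhWnt3a against vehicle was −0.54 to 0.01 without 1 library. With 3 counts at 0.17 to 0.191 CPM, depth limits Bmp2, Bmp4, Nog and, outside vehicle, Bmp6.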
